A study of Oryza sativa Indica Group with 8 samples.

Results

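Lone single-locus 21-nt miRNAs are the known rice miRNAs of 21 nt that the annotation places at exactly 1 position, with no other single-position miRNA close by on the same strand. They were chosen from the deposited annotation alone: an identifier was kept when its summed aligned bases came to 21, when it had 1 alignment, and when no other identifier with 1 alignment lay within 200 bases on the same chromosome and strand. This gave 75 of the 285 known identifiers (26.3%). Small RNAs were sequenced from rice panicles (the grain-bearing flower heads) of the genotypes Basmati370, KolaJoha, ThururBhog and IC463254, each under low_nitrogen and under rec_nitrogen, with 1 library per genotype and nitrogen level and 8 libraries in all. The abundance of these miRNAs is not analysed here, because the count columns carry names that match no sample label, so no genotype or nitrogen level could be given to any of them. All results are therefore positions, counted from 1 on the authors' build, which is not named in the sources used here.

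Plant miRNAs are cut from a folded precursor, the hairpin, by a Dicer-like enzyme, and 21 nt is a common length of the product. The cut releases a duplex whose strands come from the opposite arms of the hairpin; usually one strand guides the silencing of matching transcripts and the other is degraded. Conserved plant miRNAs are often encoded by several loci with the same mature sequence, while the strand from the opposite arm can differ from locus to locus. The annotation pairs no identifier with a miRNA name, so identifiers are printed as deposited, and neither sequences nor roles of single miRNAs can be given.

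The way to the 75 miRNAs ran through the whole 21-nt class. Of its 159 identifiers, 46 had several loci and 113 had 1. Of those 113, 38 were set aside because another single-locus miRNA lay within 200 bases on the same strand, which left 75 (66.4% of the single-locus class). For 33 of the 38 that neighbour was itself 21 nt long, with most such pairs counted from both ends. For URS0000221C1E it was the 99-nt URS000058418A, which overlaps it. Among all 193 single-locus identifiers, 113 were 21 nt long. The same steps gave 11 of 16 single-locus identifiers at 20 nt (68.8%), 15 of 22 at 22 nt (68.2%) and 26 of 35 at 24 nt (74.3%), so the lone share at 21 nt was close to that of the other common lengths. The 75 miRNAs lay on chromosomes 1 to 12, as did all 193 single-locus known miRNAs. All 75 had a row in the table of known miRNAs, and 0 of them had a gapped alignment. As no counts were read, a row does not show that the miRNA was detected in these libraries. Each was credited to the European Nucleotide Archive (ENA) alone, as were 283 of the 285 known identifiers.

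The 200-base limit fell in an empty stretch of distances. The nearest cases inside it were URS00000563EC and URS000042AE7D on chromosome 1, which lay 178 bases apart, followed by URS0000284275 and URS0000487A0C on chromosome 11, which lay 166 bases apart. The nearest cases outside it were URS00003A4BF2 and URS00004AE755 on chromosome 1 at 359 bases and URS0000293177 and URS0000451126 on chromosome 2 at 488 bases. The next was URS00002D3B5E on chromosome 12, at 3771 bases from the 22-nt URS00004D99DE. URS00001BB0B4 on chromosome 4 followed at 5449 bases from the 24-nt URS00005CD980. Distances are the start of the later locus minus the end of the earlier one.

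The name "lone" did not hold for every one of the 75 once miRNAs with several loci were counted as neighbours. On the same strand and within 200 bases, 21 of the 75 (28.0%, exact 95% interval 18.2 to 39.6) had a locus of a miRNA that is annotated at 2 or more places. The other 54 had no known locus of any kind within 200 bases on their strand. On the opposite strand such a neighbour was found beside 2 of the 75 (2.67%, 0.325 to 9.30), so close neighbours lay mostly on the strand of the miRNA itself. These 2 were URS0000572521 on chromosome 5, at 38 bases from a locus of URS000076F78F, and URS00004AE755 on chromosome 1, at 74 bases from a locus of URS000049858A.

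In these 21 cases the distance to the multi-locus neighbour ran from 1 to 126 bases, with a median of 54. Both loci together spanned 42 to 167 bases, with a median of 95. The multi-locus neighbour lay downstream, on the 3′ side, of 15 of the single-locus miRNAs and upstream of 6. Its length was 21 nt in 17 cases, 22 nt in 2 and 20 nt in 2. These nearest neighbours were 16 different identifiers, so some were counted more than once. In the whole annotation, 46 of the 92 multi-locus identifiers were 21 nt long. There each identifier is counted once, so the share is not in the same unit as the 17 of 21. The neighbours had between 2 and 12 loci in the genome, with a median of 4, and 6 of the 21 nearest neighbours had 2 loci. Whether such loci are arms of 1 hairpin was not tested, since no genome of the authors' build was used.

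**Figure D1:**
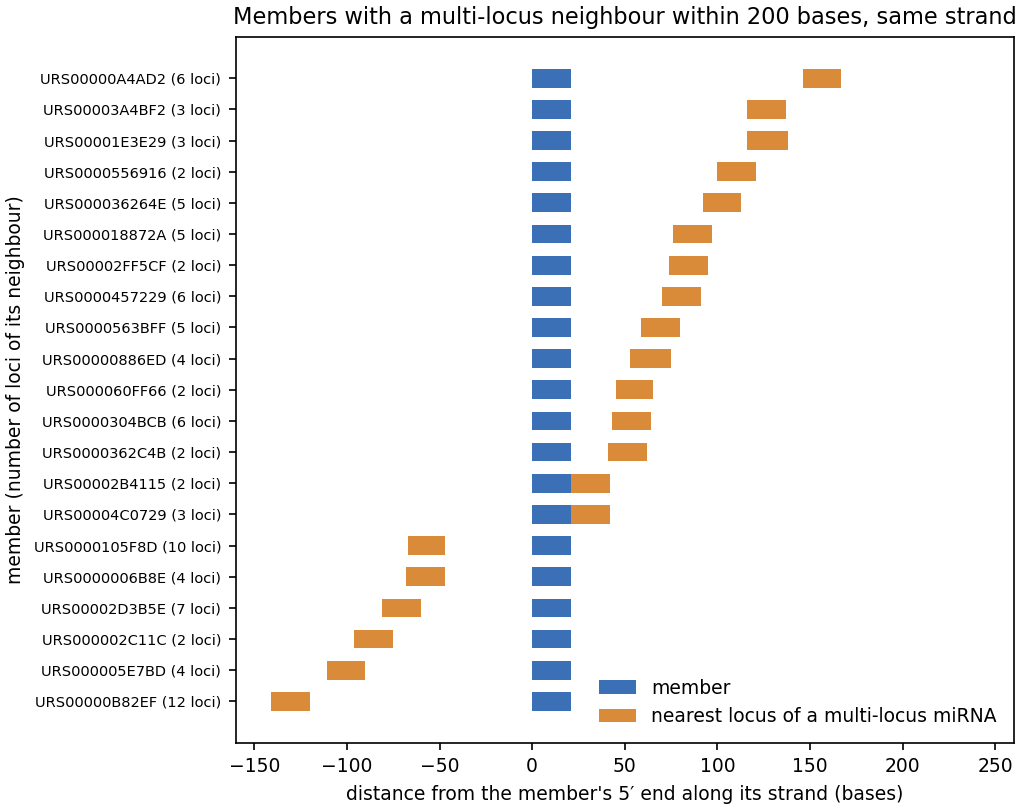
Each row is 1 of the 21 single-locus miRNAs with a multi-locus neighbour within 200 bases on its strand. The x axis is the distance in bases from the 5′ end of the single-locus miRNA (blue) along its strand, orange bars are the nearest multi-locus neighbour drawn to scale, and the number of loci of that neighbour stands after each name. The neighbour is downstream in 15 rows and upstream in 6.

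Some multi-locus miRNAs had a different single-locus 21-nt miRNA beside several of their loci, always on the same side. URS000054D5EF, a 21-nt miRNA with 5 loci, had one upstream of 3 of them. URS0000563BFF lay 39 bases away on chromosome 4 (31713541 to 31713561, minus strand). URS000018872A lay 56 bases away on chromosome 3 (1970499 to 1970519, plus strand). URS000036264E lay 72 bases away on chromosome 10 (21237325 to 21237345, plus strand). Another locus, on chromosome 3, had the 20-nt single-locus URS000027FA2E at 65 bases, and the locus on chromosome 8 had no known locus closer than 42087 bases on its strand. So 4 of the 5 places at which this miRNA is annotated had a neighbour of their own that is annotated nowhere else.

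URS00003065B2, a 21-nt miRNA with 6 loci, showed the same layout. URS0000304BCB lay 23 bases upstream of it on chromosome 3 (30392841 to 30392861, minus strand). URS0000457229 lay 50 bases upstream of it on chromosome 2 (26130079 to 26130099, plus strand). URS00000A4AD2 lay 126 bases upstream of it on chromosome 6 (30327248 to 30327268, minus strand), the widest of the 21 distances. Of its remaining loci, one on chromosome 3 had the 20-nt single-locus URS00002AA3C8 at 60 bases, one on chromosome 10 had the 2-locus URS00000212CC at 68 bases, and the other on chromosome 10 had nothing known within 10 kb on its strand.

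URS000055B49A, a 21-nt miRNA with 4 loci, had the opposite order. URS0000006B8E lay 48 bases downstream of it on chromosome 8 (1707642 to 1707662, plus strand), and URS000005E7BD lay 91 bases downstream of it on chromosome 3 (32455106 to 32455126, plus strand). The other 2 loci each had URS0000546A73, a miRNA with 2 loci, at the same distance of 43 bases. In this case the loci with an unshared neighbour and those with a shared one were 2 each.

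URS00002B4115 on chromosome 2 (18558482 to 18558502, minus strand) and URS00004C0729 on the same chromosome (30461217 to 30461237, minus strand) stood apart from the remaining 19 in that they directly abutted their neighbours, with no base between them. The neighbour was URS00002250DC, with 2 loci, for the first and URS0000547E52, with 3 loci, for the second. The second also had a locus of URS00003FA74A at 6 bases, which overlaps that of URS0000547E52.

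URS00000B82EF on chromosome 4 (31805203 to 31805223, minus strand) lay among repeated loci of 1 miRNA. Loci of the 21-nt URS000034BBE9, which has 12 in all, were found at 121, 261 and 540 bases from it on the same strand. The first lay upstream and the others downstream, so the single-locus miRNA sat inside the run. The 4 other loci of URS000034BBE9 on chromosome 4 and the 5 on chromosome 8 had no single-locus 21-nt miRNA within 200 bases.

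URS00003A4BF2 and URS00004AE755, the pair at 359 bases on chromosome 1, were both flanked by the 21-nt URS000049858A, on opposite strands. Both miRNAs are annotated on the minus strand, from 25326399 to 25326419 and from 25326778 to 25326798. One locus of URS000049858A lay on the minus strand at 96 bases from the first, and another lay on the plus strand at 74 bases from the second. The third locus of URS000049858A was on chromosome 9.

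Set beside other classes, the share of 28.0% with a same-strand multi-locus neighbour was above that of lone single-locus miRNAs of other lengths, at 11 of 57 (19.3%, exact 95% interval 10.05 to 31.9), but the intervals overlapped. By length it was 3 of 11 at 20 nt (27.3%, 6.02 to 61.0), 6 of 15 at 22 nt (40%, 16.3 to 67.7), 2 of 4 at 23 nt (50%, 6.76 to 93.2) and 0 of 26 at 24 nt (0 to 13.2). The shares at 22 and 23 nt were thus above that at 21 nt, with overlapping intervals, and the 24-nt class brought the share over the other lengths down. The 22-nt share and the share over all other lengths hang on the exact limit. The 22-nt URS00003B4377 and URS00002E6AE7 had their neighbours at 196 and 198 bases. URS00004115AE, also among the 57 of other lengths, had its neighbour at 196 bases. The distances at 21 nt ended at 126. The interval at 24 nt lay below that at 21 nt. The 57 also include the 106-nt URS000037F27C, whose nearest known locus lay 3219 bases away. Among the 38 single-locus 21-nt miRNAs that were set aside, 3 had such a neighbour (7.89%, 1.66 to 21.4). The rule put these 38 apart because each already had a single-locus neighbour within 200 bases on its strand. The 7.89% and the 28.0% thus come from classes split by their close neighbours, and no conclusion is drawn from that contrast. The intervals cover counting error alone, no test of these differences was made, and loci related by duplication are not independent.

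Over all distances and both strands, few of the 75 miRNAs had their nearest known locus between 200 bases and 1 kb. The nearest other known locus was within 200 bases for 23 (30.7%), beyond that but within 1 kb for 3, between 1 and 10 kb for 9, between 10 and 100 kb for 8 and farther for 32 (42.7%). The 3 between 200 bases and 1 kb were URS0000293177 and URS0000451126, already named, and URS000027CC30 on chromosome 3, at 385 bases from a locus of URS00000B3884. The median was 19623 bases for all 75 and 161927 bases for the 54 without a same-strand neighbour, of which 40 had nothing known within 10 kb on either strand. URS00001B9146 on chromosome 11 (10376266 to 10376286, minus strand) was the most isolated, at 977120 bases from its nearest known locus.

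**Figure D2:**
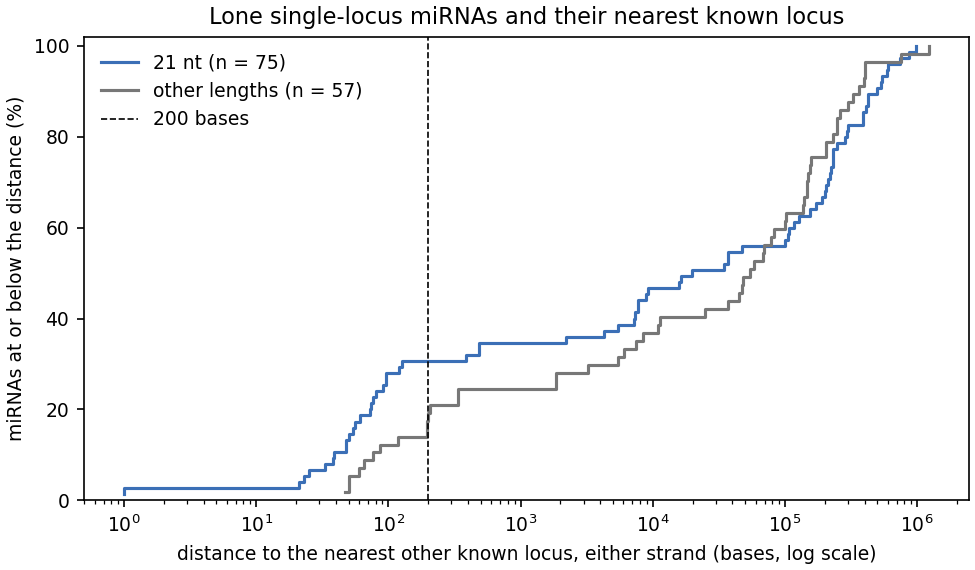
The curves give the percentage of lone single-locus miRNAs whose nearest other known locus, on either strand, lay at or below the distance on the x axis (bases, log scale), for 21 nt (blue, n = 75) and for other lengths (grey, n = 57). The blue curve reaches 30.7% at 200 bases (dashed line) and is nearly flat up to 1 kb, and the median of the 21-nt set is 19623 bases against 53946 for the others. At 100 kb the order is reversed, with 57.3% of the 21-nt set and 59.6% of the others.

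Neighbouring pairs within the set were few, and the rule itself leaves out same-strand pairs within 200 bases. Of 63 consecutive pairs of these miRNAs along the chromosomes, 3 were within 10 kb, all 3 with a shared strand. Besides the pairs at 359 and 488 bases, this was URS000010CA0A (6556058 to 6556078) and URS00003FB5A8 (6563766 to 6563786) on the minus strand of chromosome 1, at 7688 bases. Of the 60 pairs farther apart, 36 were on the same strand. The median distance between consecutive miRNAs of the set was 2150536 bases. URS0000254298 on chromosome 10 had no other single-locus miRNA on its chromosome and strand.

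The 75 miRNAs were spread unevenly over the chromosomes. Chromosome 1 held 13, chromosomes 2 and 3 held 12 each and chromosome 4 held 10, which made 47 of 75 (62.7%) on 4 chromosomes. The same 4 chromosomes held 15 of the 38 single-locus 21-nt miRNAs that were set aside (39.5%), 23 of the 57 lone miRNAs of other lengths (40.4%), 159 of the 355 chromosomal loci of 21-nt miRNAs with several loci (44.8%) and 37.2% of the predicted loci, which are the positions the authors list as new miRNA loci. Over all 193 single-locus known miRNAs, which include the 75, they held 96 (49.7%). These chromosomes were singled out after the counts had been seen, the counts were not set against chromosome length, and no test was made. Of the 21 miRNAs with a multi-locus neighbour 14 were on these chromosomes (66.7%), and of the other 54 there were 33 (61.1%). Both subsets are parts of the 75 by which the 4 chromosomes were picked, so these shares are no separate evidence of the uneven spread. Chromosome 9 held URS00002FF5CF alone (16951829 to 16951849, plus strand), which lay 54 bases upstream of a locus of URS0000258493.

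The strands were near balance in the whole set. The plus strand held 36 of 75 (48.0%, exact 95% interval 36.3 to 59.8) and the minus strand 39. Among lone miRNAs of other lengths it held 36 of 57 (63.2%, 49.3 to 75.6), with overlapping intervals. Chromosomes 1 and 2 each had 9 on the minus strand, against 4 and 3 on the plus strand, while chromosome 3 had 9 on the plus and 3 on the minus strand. All 5 on chromosome 7 and all 3 on chromosome 11 were on the minus strand, and the 3 on chromosome 8 and the 3 on chromosome 12 were on the plus strand, numbers too small to read a difference from.

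**Figure D3:**
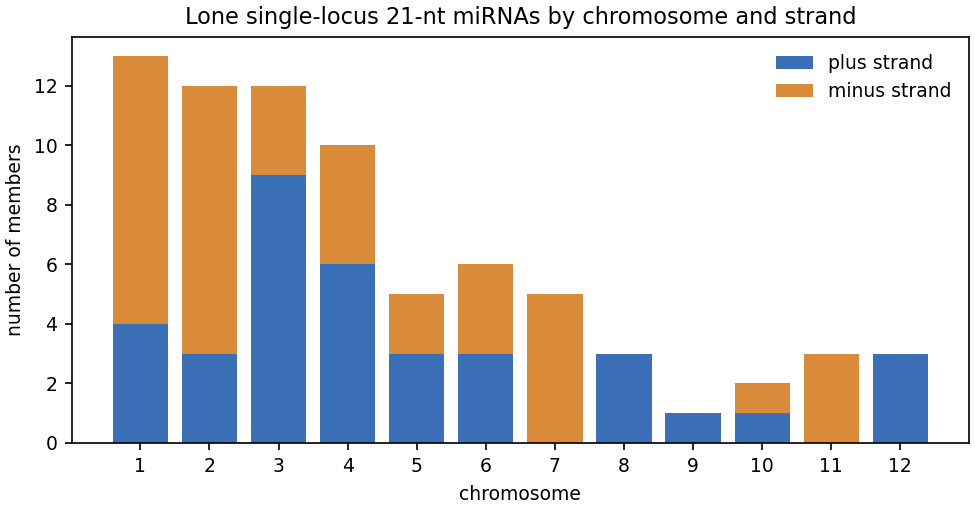
Bars give the number of lone single-locus 21-nt miRNAs on each chromosome (x axis), split into plus strand (blue) and minus strand (orange). Chromosomes 1 to 4 hold 47 of the 75, and chromosome 9 holds 1.

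Predicted loci seldom lay near these miRNAs. The row names of predicted loci carry no strand, so either strand was counted. Of the 75, 1 overlapped a predicted locus and 3 were within 10 kb of one. URS000049728D (6404255 to 6404275, minus strand) lay inside a predicted locus on chromosome 11. URS00001BB0B4 on chromosome 4 (21650334 to 21650354, plus strand) ended 209 bases before the predicted locus from 21650563 to 21650630. URS000034E269 on chromosome 11 (25091568 to 25091588, minus strand) was 9583 bases from the predicted locus from 25081898 to 25081985. The median distance to the nearest predicted locus was 118784 bases, against 123042 for lone miRNAs of other lengths and 197097 for the 38 set aside. Those 2 sets had 5 of 57 and 2 of 38 within 10 kb.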

How the data were processed

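Small RNAs of 8 rice panicle libraries were sequenced from TruSeq small RNA libraries, per the labels. The tools Bowtie, Subread, bedtools and fastp are listed without roles, versions or a build in the submitters' processing notes. Known miRNAs come as RNAcentral alignments in an annotation the authors deposited, per the file rows, beside 2 tables. From the tables the row names alone were read, which hold no measurement. Their 16 per-library columns match no sample label and were not used, so depth, abundance and planned summaries by library are not given.

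Alignment lengths were summed over exons, and distances are the later start minus the earlier end. Shares carry exact Clopper-Pearson intervals at 95%. The member rule was checked on invented positions with known answers. The miRNAs and lists were chosen with earlier results of these data known. Named miRNAs are those that overlap a predicted locus, those within 10 kb of another of the set, those closest to the 200-base limit on either side and the most isolated one. The miRNAs beside multi-locus loci, and others named for their place, were added after their positions had been seen. No sequences could be read. Positions were handled with pandas 2.3.3 under Python 3.11.15, with intervals from SciPy 1.17.1 and figures from Matplotlib 3.10.9.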

Additional observations from a re-analysis of the deposited data

How the results depend on the processing

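The size of the set was 75, 84 with a limit of 100 bases, and 71 with 500 or 1000 bases, which lost the pairs at 359 and 488 bases. It was 75 with neighbours on either strand, on chromosomes 1 to 12 alone, and with length taken as the span. Counting every locus of multi-locus miRNAs as a neighbour gave 54, all of them among the 75. The plus-strand share was 48.0%, 50.7% with a limit of 1000 bases and 44.4% with every locus counted. The number within 10 kb of another known locus was 35, 32 on the same strand, and 9 with single-locus neighbours alone, since that setting leaves out the loci of multi-locus miRNAs. The number that overlapped a predicted locus was 1, also within 100 bases, and 3 within 10 kb, a wider window. No paired analysis was possible because the count columns carry no genotype or replicate and no test was run. The depth of the libraries was not analysed here.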
